A study of Arabidopsis thaliana with 12 samples.

Results

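Of the 27654 protein-coding genes listed for Arabidopsis thaliana, 11 were high in every library outside the wild type. The genes were chosen by their TPM: the lowest value among the 10 libraries other than Col-0, on log2(TPM + 0.5), had to be at least 1 above the higher of the 2 Col-0 libraries. TPM is the number of transcripts per 1000000, a level scaled for transcript length, and 0.5 was added so that values of 0 could be used. The 11 genes were AT1G64795, AT3G01345, AT3G61030, AT1G75945, AT3G60950, QQS (AT3G30720), AT4G03157, AT4G14305, LBD1 (AT1G07900), AT1G74150 and AT1G31095. They were 0.0398% of the coding genes. Because this comparison with Col-0 chose them, their levels against Col-0 are given as a description with no test. Tests compared only the other 10 libraries with each other. The fit held all 6 groups, so the Col-0 libraries also entered its estimate of the spread.

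RNA of whole seedlings was sequenced in 12 libraries, with 2 in each of 6 groups. The study asked what a change of 1 residue in the DNA methyltransferase CMT2 does to gene and transposable element (TE) transcripts. Seedlings were 10 days old and had grown at 22 °C with 16 hours of light and 8 hours of dark on a medium with 1% sucrose. Col-0 is the wild-type accession. The libraries labelled cc carry T-DNA insertions in CMT2 (cmt2-7) and in CMT3 (cmt3-11), and all transgenic plants carry both insertions as well. CMT2/cc lines 1 and 19 add a FLAG-tagged genomic fragment of CMT2 with its own promoter. V1200R/cc lines 9 and 15 add the same fragment with the V1200R substitution of valine by arginine, which these tables cannot check. The vector also holds a red fluorescent OLE1 marker made in dry seeds. The paper describes the 2 lines of a construct as independent. The labels do not say whether the 2 libraries of a group came from separate cultures. The p-values therefore measure the spread between libraries, which may be technical.

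CMT3 is the methyltransferase that maintains methylation of cytosines in the CHG context, where H is A, C or T, and CMT2 acts mainly at CHH sites and in part at CHG sites. Both are recruited to chromatin that carries methylated histone H3 lysine 9, and the marks they leave keep many TEs silent. Some genes that lie in or beside TE sequence are silent by the same route. QQS, an orphan gene that affects how plants divide carbon between starch and protein, is a well known case whose DNA methylation and level vary between stocks.

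CMT2 was at 15.002 and 13.3 TPM in Col-0, at 1.70 and 1.99 TPM in the libraries labelled cc, and between 79.6 and 159 TPM in the 8 transgenic libraries. Line 19 of CMT2/cc was the lowest of these (79.6 and 80.8 TPM) and line 15 of V1200R/cc the highest (146 and 159 TPM), while line 1 had 114 and 123 TPM and line 9 had 112 and 127 TPM. V1200R/cc was thus above CMT2/cc by 0.47 on the log2 scale (limma adjusted p = 0.000927), although lines 1 and 9 overlapped. The libraries labelled cc showed no drop of the CMT3 transcript, at 16.4 and 14.02 TPM against 12.9 and 11.5 TPM in Col-0. In the 8 transgenic libraries it was between 4.72 and 7.02 TPM. Markers of seedling shoots were abundant, with 3 genes summing to between 36318 and 42565 TPM, and 3 flower genes summed to at most 0.89 TPM. Summed seed storage and oleosin genes were at most 0.42 TPM in Col-0 and ranged from 0 to 27.0 TPM elsewhere. Coverage and FPKM of the files imply between 929522229 and 1452952086 aligned bases per library, and r between replicates was 0.98 in each group. No read counts were used here, so no counting interval is given. A gene listed at 0 can be a failed estimate, because between 17 and 33 coding genes per group were at 0 in 1 replicate and at 5 TPM or more in the other.

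The first 6 of the 11 genes exceeded 10 TPM in every library outside Col-0, and their start regions are shown first. Each window runs from 250 bases before to 50 bases after the annotated start, read 5′ to 3′ on the gene's strand from the RefSeq assembly TAIR10.1, whose gene positions matched those of the files for all 11 genes. Capitals mark CAG and CTG, which are CHG sites on both strands. AT3G60950 and AT3G61030 share 1 line because their windows were identical at all 300 bases.
AT1G64795, chr1:24082329-24082628, plus strand: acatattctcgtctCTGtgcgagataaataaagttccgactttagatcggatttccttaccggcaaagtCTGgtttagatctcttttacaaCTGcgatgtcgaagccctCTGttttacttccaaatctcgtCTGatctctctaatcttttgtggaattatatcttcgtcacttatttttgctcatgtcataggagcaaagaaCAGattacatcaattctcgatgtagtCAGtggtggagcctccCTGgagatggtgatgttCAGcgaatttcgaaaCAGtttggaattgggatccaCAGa
AT3G01345, chr3:128888-129187, plus strand: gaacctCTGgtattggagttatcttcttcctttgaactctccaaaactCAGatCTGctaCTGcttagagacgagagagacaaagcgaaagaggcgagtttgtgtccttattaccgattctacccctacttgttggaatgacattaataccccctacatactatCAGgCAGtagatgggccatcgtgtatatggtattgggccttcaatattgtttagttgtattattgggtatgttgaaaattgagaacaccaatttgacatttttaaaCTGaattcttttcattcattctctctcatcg
AT3G61030, chr3:22585405-22585704, and AT3G60950, chr3:22524225-22524524, plus strand: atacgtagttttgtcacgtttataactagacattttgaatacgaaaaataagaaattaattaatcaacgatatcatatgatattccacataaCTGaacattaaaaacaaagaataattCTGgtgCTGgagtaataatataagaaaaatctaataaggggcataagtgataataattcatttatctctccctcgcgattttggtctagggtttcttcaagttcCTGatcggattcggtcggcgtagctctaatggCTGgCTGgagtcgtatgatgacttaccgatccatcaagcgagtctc
AT1G75945, chr1:28515867-28516166, minus strand: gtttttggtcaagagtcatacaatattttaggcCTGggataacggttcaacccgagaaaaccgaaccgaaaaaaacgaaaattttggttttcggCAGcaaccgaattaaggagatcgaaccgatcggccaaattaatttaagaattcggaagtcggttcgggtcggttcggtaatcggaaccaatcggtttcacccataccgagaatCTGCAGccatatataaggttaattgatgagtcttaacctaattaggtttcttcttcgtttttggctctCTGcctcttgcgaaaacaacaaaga
QQS, chr3:12348797-12349096, plus strand: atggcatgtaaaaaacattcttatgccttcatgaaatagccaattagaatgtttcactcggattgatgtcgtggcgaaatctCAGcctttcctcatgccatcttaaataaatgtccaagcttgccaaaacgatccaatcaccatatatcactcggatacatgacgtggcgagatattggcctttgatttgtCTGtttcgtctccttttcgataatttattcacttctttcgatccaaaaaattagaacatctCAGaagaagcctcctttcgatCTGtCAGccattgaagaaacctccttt

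These windows held 11 such triplets in AT1G64795, 7 in AT3G01345, 6 in each of AT3G61030 and AT3G60950, and 5 in each of AT1G75945 and QQS. Over all 11 genes the median was 6 per window, against 4 over the windows of 27443 nuclear coding genes. The identical windows of AT3G61030 and AT3G60950 were both counted. CCG, also a CHG site, and its complement CGG were left out of these counts. With them, AT1G75945 had 21 triplets, the most of the 11 windows, and the medians were 8 against 6. The median GC content was 38.67% in the 11 windows against 32.0% in all, and its part in the triplet counts was not tested. At least 1 CAG or CTG was present in all 11 windows and in 97.02% of all windows, so its presence says little about these genes. The methylation state of the sites was not analysed here.

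QQS was listed at 0 in both Col-0 libraries and at 38.9 and 38.0 TPM in cc. CMT2/cc line 1 had 19.3 and 27.5 TPM and line 19 had 25.1 and 29.1 TPM, whereas V1200R/cc line 9 had 14.1 and 15.4 TPM and line 15 had 13.1 and 16.0 TPM. In these whole seedlings, fewer cells with a transcript and less RNA per cell cannot be told apart. The libraries fell in the order cc, CMT2/cc, V1200R/cc and Col-0 with no overlap between these 4, whereas the 2 lines of each construct overlapped each other. The gene (chr3:12349047-12349933, plus strand) lies wholly inside the listed element AT3TE51150, which was at 0.72 to 1.01 TPM in Col-0 and at 0 to 0.87 TPM elsewhere.

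Against cc, QQS was lower by a log2 difference of -1.35 (SE 0.16, limma adjusted p = 0.000698) in V1200R/cc line 9 and of -1.38 (SE 0.16, limma adjusted p = 0.000533) in line 15. Both passed the call used throughout, an adjusted p under 0.05 over 23614 features and an absolute log2 difference of at least 1. The difference was -0.72 (limma adjusted p = 0.0387) in CMT2/cc line 1 and -0.50 (limma adjusted p = 0.163) in line 19, and neither was called. The 4 line comparisons share the cc libraries. Set directly against CMT2/cc, V1200R/cc was lower by -0.75 (SE 0.11, limma adjusted p = 0.00132), which is short of the fold required for a call. The CMT2 transcript was higher in V1200R/cc by 0.47 on the same scale, and its part in this difference was not tested.

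AT1G75945 encodes an uncharacterized protein of 61 codons (chr1:28515245-28515916, minus strand) and lies inside AT1TE93275, an element on the opposite strand. It was listed at 0 in both Col-0 libraries and at 16.3 and 22.7 TPM in cc, and CMT2/cc line 1 had 20.6 and 22.6 TPM and line 19 had 20.6 and 24.0 TPM. In V1200R/cc it was at 44.5 and 45.2 TPM in line 9 and at 43.7 and 44.3 TPM in line 15. All 4 V1200R/cc libraries were above all 6 libraries of cc and CMT2/cc, which overlapped each other. AT1TE93275 itself was at 0.67 to 3.39 TPM outside Col-0.

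The log2 difference of AT1G75945 from cc was 1.20 (SE 0.14, limma adjusted p = 0.00061) in V1200R/cc line 9 and 1.17 (SE 0.14, limma adjusted p = 0.000601) in line 15. Both were called higher. Without cc replicate 1 they were 0.97 and 0.94, under the fold required. Between V1200R/cc and CMT2/cc the difference was 1.00 (SE 0.10, limma adjusted p = 0.000111), at the edge of the call. Its neighbours showed a difference of the same size. The 42 coding genes of mean 5 TPM or more within 100 kb had a median V1200R/cc minus CMT2/cc difference of 0.95 on the log2 scale. AT1G75945 was the 1 member in a run of 7 adjacent 200-kb windows (chr1:28400001-29800000) in which 250 of 251 such genes had a positive V1200R/cc minus CMT2/cc difference, with a median of 0.93. The medians of the other 517 windows with at least 5 such genes lay between -0.27 and 0.21, and windows with fewer were not examined. AT1G75945 exceeded the median of the run by 0.07. The part of the run in the rise of AT1G75945 was not tested.

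**Figure D1:**
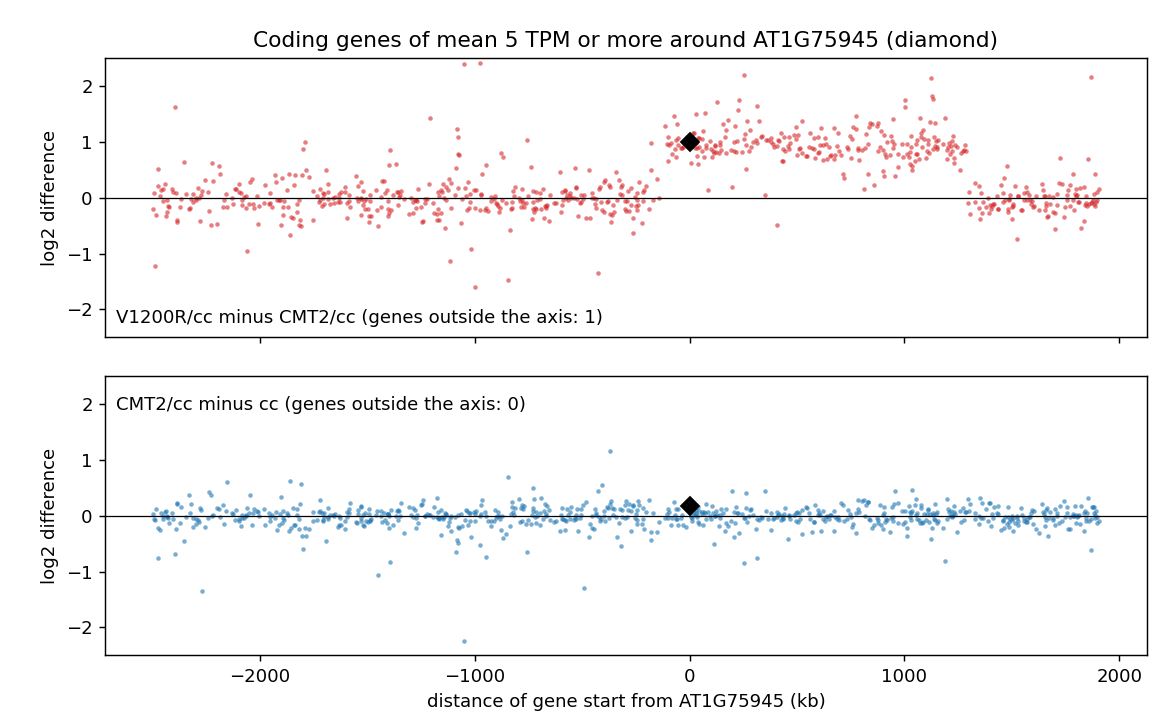
Log2 difference of each coding gene of mean 5 TPM or more against the distance of its start from AT1G75945 in kb, for V1200R/cc minus CMT2/cc (upper) and CMT2/cc minus cc (lower). AT1G75945 (diamond, 1.00 in the upper panel) sits within a step of genes near 0.93 that is absent from the lower panel. For CMT2/cc minus cc, medians of 200-kb windows with at least 5 such genes were between -0.19 and 0.18 in both lines.

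AT3G01345 (chr3:129138-130749, plus strand), an uncharacterized protein of 466 codons in 1 exon, was the member with the highest levels in V1200R/cc. Col-0 had 0.78 and 0.39 TPM and both cc libraries 131 TPM, CMT2/cc line 1 had 95.9 and 126 TPM, and line 19 had 136 and 139 TPM. In V1200R/cc it was at 193 and 192 TPM in line 9 and at 183 and 205 TPM in line 15. As for AT1G75945, all 4 V1200R/cc libraries were above the 6 libraries of cc and CMT2/cc. V1200R/cc minus CMT2/cc was 0.65 (SE 0.12, limma adjusted p = 0.00329), past the p but short of the fold. Here the 41 neighbours within 100 kb had a median of -0.05. AT3G01345 overlapped no listed feature, and the nearest listed TE was 13239 bases away. The gene before it, AT3G01340, 143 bases away, had 62.4 and 62.9 TPM in Col-0 and between 53.7 and 65.7 TPM elsewhere.

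**Figure D2:**
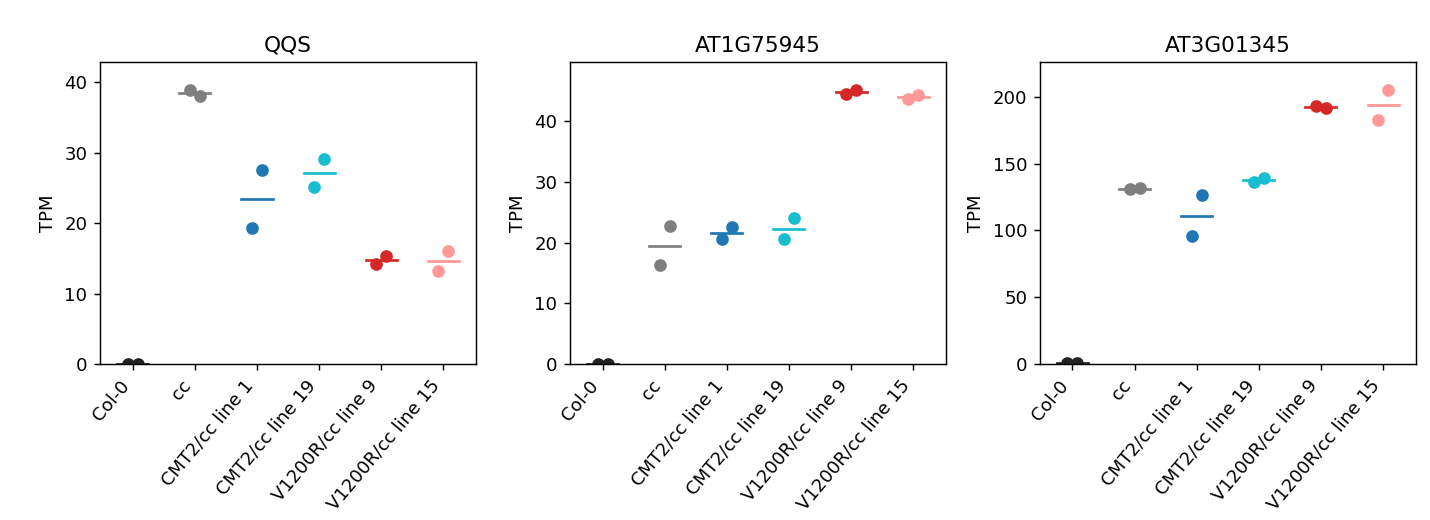
TPM (linear axis from 0) of QQS, AT1G75945 and AT3G01345 in each library, with points for the 2 libraries of a group and a line for their mean. QQS runs from 38.9 TPM in cc down to 13.1 TPM in V1200R/cc, whereas AT1G75945 and AT3G01345 are highest in V1200R/cc, at up to 45.2 and 205 TPM.

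AT3G60950 and AT3G61030 encode proteins with C2 domains, which bind membrane lipids and often calcium. AT3G61030 (chr3:22585655-22590853, plus strand) was listed at 0 in Col-0 and at 30.3 and 34.0 TPM in cc. CMT2/cc line 1 had 31.0 and 35.5 TPM, line 19 had 33.5 and 32.2 TPM, V1200R/cc line 9 had 28.5 and 31.4 TPM, and line 15 had 32.5 and 30.03 TPM. AT3G60950 (chr3:22524475-22530306, plus strand) had 0 and 0.64 TPM in Col-0 and between 32.2 and 39.4 TPM in the other 10 libraries. Neither was called in any comparison among these 10. The largest log2 difference of either was -0.16, for AT3G60950 in V1200R/cc line 9 against cc, and the cc range of AT3G61030 overlapped that of each line.

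The 2 genes are near copies. Their spans aligned over 5199 bases with 1 mismatch and 1 gap (99.962% identity), and the copy reached 10162 aligned bases at 99.478% identity with the flanks. In AT3G61030, 98.52% of windows of 50 bases occurred also in AT3G60950. Their levels kept a ratio of 1.05 to 1.18 in all 10 libraries, and reads of one cannot be told from reads of the other over most of their length. The sum of the pair was between 60.7 and 73.3 TPM outside Col-0. How reads that fit both copies were counted is not given, so the sum may count such reads at both genes. The element AT3TE92070, 410 bases downstream of AT3G61030 and inside its copy, met the same rule, with at most 0.28 TPM in Col-0 and 10.6 to 16.6 TPM elsewhere. The matching element at the other copy, AT3TE91780, which overlaps the end of AT3G60950 by 225 bases, was at most 0.28 TPM in every library. Whether reads of the 2 elements can be told apart, or were assigned to AT3G60950 in the overlap, was not examined.

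AT1G64795 had the widest margin over Col-0, 7.43 on log2(TPM + 0.5). It was listed at 0 in Col-0 and at 98.98 and 121 TPM in cc. CMT2/cc line 1 had 87.3 and 90.8 TPM, line 19 had 85.4 and 86.5 TPM, V1200R/cc line 9 had 101 and 91.6 TPM, and line 15 had 128 and 115 TPM. No library of CMT2/cc reached the lowest of V1200R/cc, which was higher by 0.30 (SE 0.07, limma adjusted p = 0.0101), a difference under the fold required. AT1G64795 (chr1:24082579-24082848, plus strand) is an uncharacterized gene of 66 codons that lies wholly within ILA (AT1G64790), which codes on the opposite strand for a HEAT repeat protein with roles in defence and translation. ILA was at 21.0 to 24.1 TPM in Col-0 and at 21.1 to 27.8 TPM elsewhere. Of the 3 RefSeq transcripts of ILA, 1 has exons over 142 bases of AT1G64795 and the others have none there. The strand setting is not given in the sources used here, so reads of ILA in these bases cannot be told from those of AT1G64795.

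**Figure D3:**
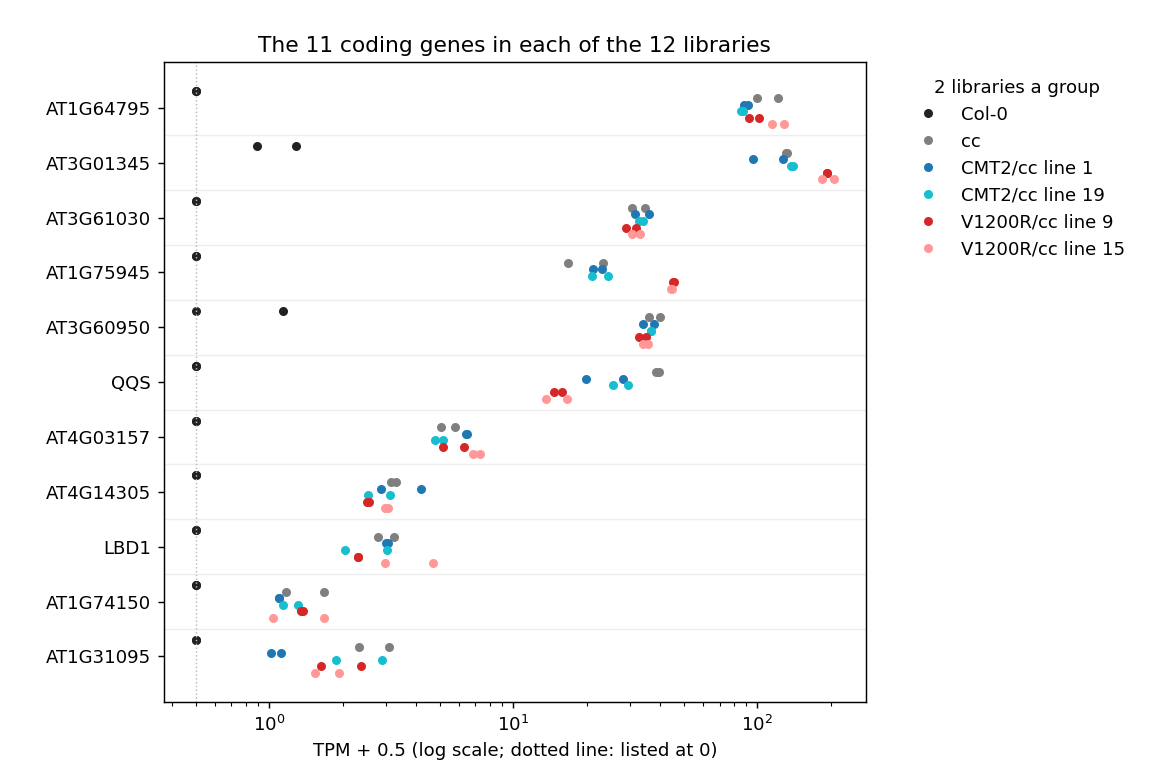
TPM + 0.5 on a log axis for each of the 11 genes in each of the 12 libraries, coloured by group (2 libraries a group). All Col-0 points lie at or near the dotted line that marks 0, the highest at 0.78 TPM, and the other 10 libraries of each gene lie to their right.

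The remaining 5 genes had low levels. AT4G03157 (chr4:1396953-1397351, minus strand), an uncharacterized gene of 62 codons, was listed at 0 in Col-0, at 4.56 and 5.29 TPM in cc, at 4.26 to 5.98 TPM in CMT2/cc and at 4.65 to 6.82 TPM in V1200R/cc. Its neighbour AT4G03156, 168 bases away, was also listed at 0 in Col-0 and ranged from 0 to 12.04 TPM elsewhere. Of the windows of AT4G03157, cut to the length used for AT3G61030, 16.86% occurred also elsewhere in the genome. Reads within those windows cannot be assigned to AT4G03157 with certainty. AT4G14305 (chr4:8235093-8236744, minus strand), of the Mpv17/PMP22 family of organelle membrane proteins, was listed at 0 in Col-0 and at 2.02 to 3.70 TPM in the other 10 libraries. It shares 22 bases and its strand with AT4G14310, which was at 7.76 to 8.17 TPM in Col-0. The sum of the pair in the lowest of the 10 libraries was 0.17 above that of Col-0 on the log2 scale, and how reads were divided between them is not given in the sources used here.

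LBD1 (chr1:2442570-2443746, plus strand), a transcription factor of the LOB domain family, whose members act in organ boundaries and lateral organs, was listed at 0 in both Col-0 libraries. Its levels were 2.75 and 2.28 TPM in cc, 1.55 to 2.56 TPM in CMT2/cc and 1.80 to 4.17 TPM in V1200R/cc, and these groups overlapped. AT1G74150 (chr1:27880380-27883857, plus strand), a kelch repeat protein, was listed at 0 in Col-0 and at 0.54 to 1.18 TPM elsewhere. With AT1G31095 it was the member nearest the threshold, with margins of 1.05 and 1.02. Just outside, AT5G01300 was listed at 0 in Col-0 and at 0.50 to 2.03 TPM elsewhere, with a margin of 0.9962, and AT4G37235 followed with 0.75. For genes at 0 in Col-0 these margins depend on the amount added before taking logs.

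AT1G31095 (chr1:11102778-11103644, plus strand), annotated with a dehydrogenase domain that binds NAD, was listed at 0 in both Col-0 libraries and had 1.84 and 2.60 TPM in cc. CMT2/cc line 1 had 0.52 and 0.62 TPM, line 19 had 2.41 and 1.38 TPM, V1200R/cc line 9 had 1.13 and 1.88 TPM, and line 15 had 1.03 and 1.43 TPM. Only line 1 lay below all other libraries outside Col-0. It was called lower than cc there, by -1.34 (SE 0.28, limma adjusted p = 0.0306), although line 19 minus line 1, at 1.14 (limma adjusted p = 0.407), was not called. When any of the 4 libraries of cc and line 1 was left out, the difference stayed between -1.54 and -1.14, but the adjusted p rose to between 0.0623 and 0.2 and the call was lost. Both features that overlap AT1G31095 met the same rule. The long noncoding RNA AT1G06407, on the opposite strand, was at most 0.13 TPM in Col-0 and 4.91 to 9.94 TPM elsewhere, and the element AT1TE35870 was listed at 0 in Col-0 and at 9.28 to 20.5 TPM elsewhere. Their levels exceeded that of the gene in all 10 libraries. Of the windows of AT1G31095, cut to the length used for AT3G61030, 19.68% occurred also elsewhere, on chr1 and chr5. Whether those other places lie in listed TEs was not examined. Reads within those windows cannot be assigned to this locus with certainty. Whether the shared windows include AT1TE35870 was not examined, and the source of its reads was not tested.

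**Figure D4:**
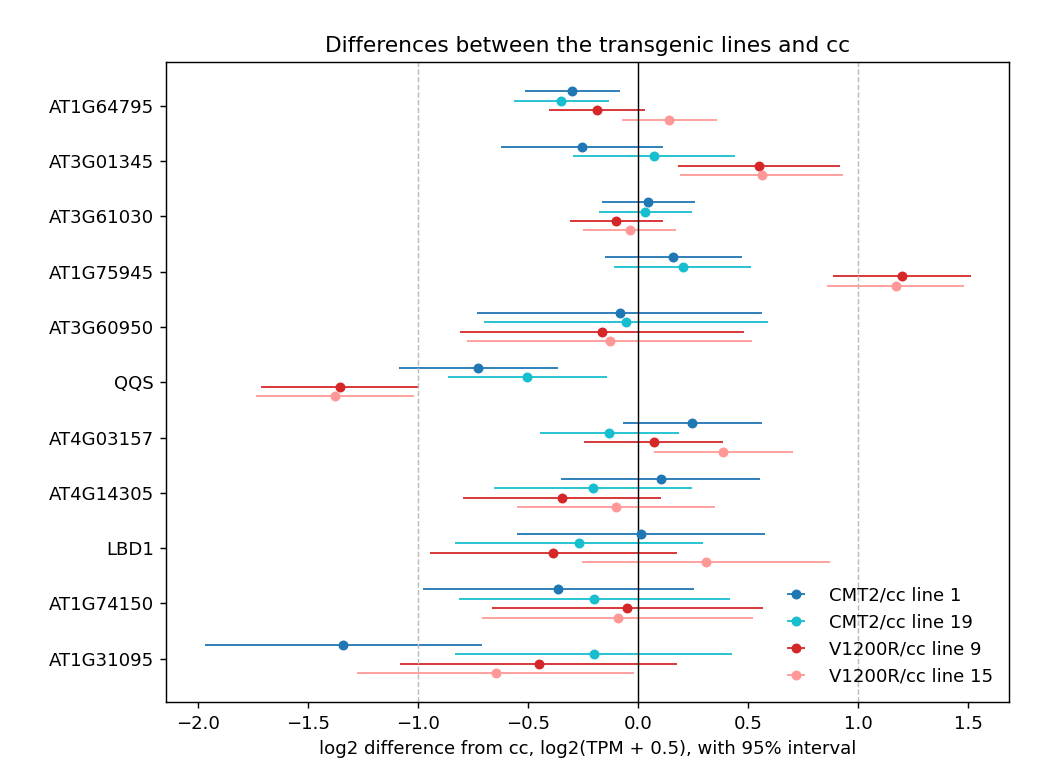
Log2 difference of each transgenic line from cc for the 11 genes, with 95% intervals from limma; dashed lines mark -1 and 1. QQS lies left of -1 and AT1G75945 right of 1 in both V1200R/cc lines, AT1G31095 left of -1 in CMT2/cc line 1 only, and the other points lie between the dashed lines.

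Among the 10 libraries, 3 of the 11 genes were called in at least 1 of 7 comparisons and 8 in none, where 5.96% of all features were called at least once. All 11 passed the filter of 0.5 TPM in at least 2 libraries, because the rule itself requires that much in 10. In CMT2/cc line 1 against cc, 1 of 11 was called, where 1.96% of the 23614 features tested were called. In V1200R/cc against cc, 2 of 11 were called in line 9 and the same 2 in line 15, QQS lower and AT1G75945 higher, where 3.02% and 3.85% of all features were called. In V1200R/cc against CMT2/cc, 1 of 11 was called, where 3.1% were called over all features, and 4 of 11 had an adjusted p under 0.05 at any fold, as did 27.5% of all features. No member was called by limma in CMT2/cc line 19 against cc, in line 19 against line 1 or in V1200R/cc line 15 against line 9, where 1.72%, 0.174% and 0.0212% of all features were called. In these 3 comparisons 2, 2 and 3 members had an unadjusted p under 0.05, beside 14.8%, 7% and 6.75% of all features, and no other tool was run. The median difference over the members was -0.08, -0.20, -0.16 and -0.04 against cc for line 1, line 19, line 9 and line 15 in that order, beside -0.03, -0.03, -0.05 and -0.04 over all features.

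The span between the lowest and the highest of the 10 libraries had a median of 0.74 on the log2 scale over the 11 genes, from 0.28 to 1.61, against 0.51 over the 20860 coding genes tested. Few genes that were above Col-0 in cc were above it everywhere. Both cc libraries were at least 1 above the higher Col-0 library for 132 coding genes. Of these, 24 were also that high in all 4 CMT2/cc libraries, 14 in all 4 V1200R/cc libraries and 11, or 8.33%, in all 10. These steps share the Col-0 and cc libraries and are given with no test. The mirrored rule, with both Col-0 libraries at least 1 above the highest of the other 10, was met by 1 coding gene.

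**Figure D5:**
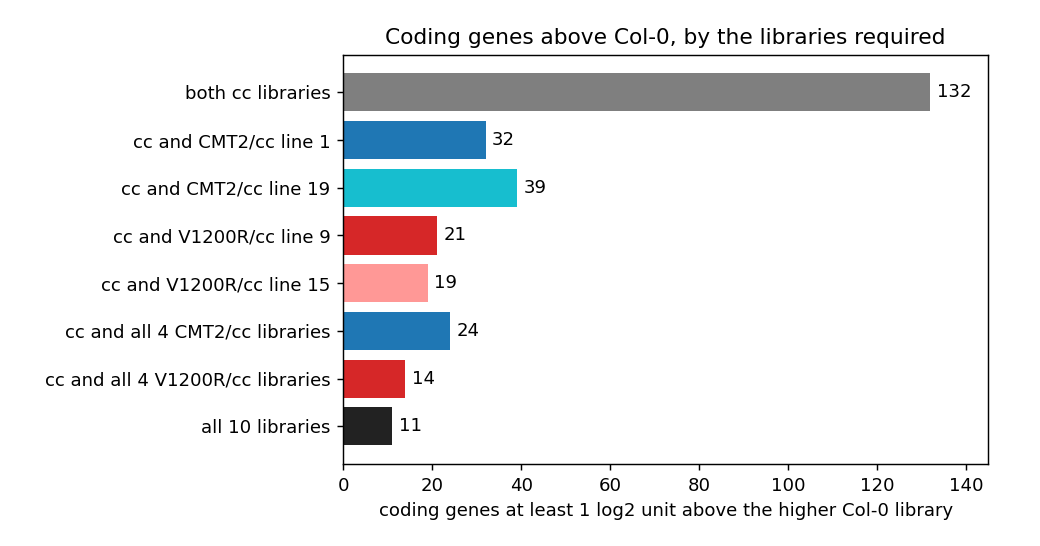
Number of coding genes at least 1 log2 unit above the higher Col-0 library, by the libraries in which this was required (bars start at 0). Of 132 genes high in both cc libraries, 32 and 39 were also high in CMT2/cc lines 1 and 19, 21 and 19 in V1200R/cc lines 9 and 15, and 11 in all 10 libraries.

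Several of the 11 genes were short or close to TEs. Predicted proteins of under 100 codons were encoded by 5 of them (45.45%), namely AT1G64795, AT1G75945, QQS, AT4G03157 and AT1G31095, against 4.51% of coding genes tested. Over all nuclear coding genes that share was 7.7%. The median gene length was 1177 bases, against 2347 over coding genes tested. A listed TE or TE gene overlapped AT1G75945, AT3G60950, QQS, AT4G03157 and AT1G31095, which is 5 of 11 (45.45%) against 13.59% of coding genes tested, and 7 of 11 (63.64%) had one within 1 kb, against 34.66%. AT3G01345 and AT4G14305 were over 10 kb from any. Over all nuclear coding genes, 14.88% overlapped a listed TE or TE gene and 38.6% had one within 1 kb. Most members were listed at 0 in Col-0, and no share was taken over genes silent there. Overlap with any other listed feature was found for 7 of 11 genes, against 41.3%. Of the 11, 5 lie on chromosome 1, 4 on chromosome 3 and 2 on chromosome 4. Within 100 kb the median cc minus Col-0 difference of other coding genes lay between -0.16 and 0.10 for every member, with 1 such gene near QQS and 18 to 42 near the others.

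The same rule was met by 24 of 41402 features of other kinds, beside 11 of 27654 coding genes. The 24 were 12 of 31188 TEs, 6 of 3901 TE genes, 3 of 221 other RNAs, 2 of 508 other transcribed regions and 1 of 2444 long noncoding RNAs. Of the 24, 3 lay within 1 kb of a member, and they are the features named beside AT3G61030 and AT1G31095.

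Of 8 listed genes known for control by DNA methylation, QQS among them, 6 were tested, and SDC and FWA stayed at or near 0, with at most 0.33 TPM in any library. MRD1 had 0.52 and 0.14 TPM in Col-0 and 24.0 and 20.1 TPM in cc. It was listed at 0 in CMT2/cc line 19 replicate 2 and V1200R/cc line 15 replicate 2, which kept it outside the rule. The other transgenic libraries had 19.9 to 35.3 TPM of MRD1. IBM1 was 0.56 above cc on the log2 scale (limma adjusted p = 0.0106) in V1200R/cc line 15. MRD1, IBM1 and EPF2 were not called in any comparison. ROS1, a DNA demethylase whose transcript follows methylation levels, was below cc in all 4 lines. Its log2 difference was -1.05 (limma adjusted p = 0.00236) for CMT2/cc line 1 and -0.69 (adjusted p = 0.0261) for line 19, and V1200R/cc lines 9 and 15 had -0.77 (adjusted p = 0.00703) and -0.80 (adjusted p = 0.00431). Of these, only line 1 reached the fold required for a call. MRU1 had 14.4 and 10.6 TPM in Col-0 and 50.5 and 51.6 TPM in cc. CMT2/cc line 1 had 4.19 and 3.83 TPM and line 19 had 8.13 and 0 TPM, and all 4 V1200R/cc libraries were listed at 0. Against cc it was called lower in line 19 and in both V1200R/cc lines, as QQS was in the latter. Each of these MRU1 calls includes at least 1 library listed at 0, which can be a failed estimate. Line 1 was not called, at -3.52 (SE 0.97, limma adjusted p = 0.0872). MRU1 was also called lower in V1200R/cc against CMT2/cc (limma adjusted p = 0.02). Its 8 transgenic libraries thus lay below Col-0, where those of QQS lay above it. Of 10 tested genes of the methylation machinery, CMT2 was called higher and CMT3 lower than cc in each line, and the other 8 were not called. Of 14 salicylic acid defence genes, FMO1 was called lower in CMT2/cc line 19 against cc and higher in V1200R/cc against CMT2/cc, and the other 13 were not called.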

How the data were processed

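RNA of whole seedlings was measured in 12 libraries of 6 groups, taken from the sample titles. Per the labels, the authors' tools were fastp for trimming, HISAT2 2.0.0 for alignment to TAIR10 and StringTie for abundance. The deposited tables give coverage, FPKM and TPM per feature. Strand setting and the treatment of reads with several alignments are not given in the sources used here. TPM of a repeated identifier were added. Since no counts were used, log2(TPM + 0.5) of all 6 groups was fitted with limma 3.58.1 (lmFit, eBayes with a trend) in R 4.3.3, over the 23614 features that reached 0.5 TPM in 2 or more libraries, with Benjamini-Hochberg adjustment and two-sided tests. The fit was tested on simulated data: of 200 features given a log2 change of 2 in V1200R/cc line 9 against cc, 191 were called, as were 4 unchanged features. Sequences came from RefSeq TAIR10.1 and were compared with blastn 2.17.0. Alternatives were pseudocounts of 0.1 and 1, FPKM, quantile normalization, other filters and fits, a margin of 1.5, features free of overlap, and each library left out. All 11 genes could be named. The members and the gene lists were chosen with earlier results of these data known.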

Additional observations from a re-analysis of the deposited data

Results flagged for a closer look

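A direct test of V1200R/cc against CMT2/cc, as the mean of both lines of each construct, gave an adjusted p under 0.05 in limma for 4 of the 11 genes, as it did for 27.5% of all features tested. On the log2 scale AT1G75945 differed by 1.00 and AT3G01345 by 0.65, and AT1G64795 by 0.30. QQS differed by -0.75. Only AT1G75945 reached the fold required for a call. This comparison counts the 2 libraries of a line as independent. Neither the 2 CMT2/cc lines nor the 2 V1200R/cc lines differed from each other in these genes by an adjusted p under 0.05.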

How the results depend on the processing

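Of 1533 values of single genes under the alternatives, 1519 stayed on their side of the call, 14 lost it and none was reversed. With the Col-0 group left out of the fit, all 77 such values stayed on their side. QQS remained called in both V1200R/cc lines under each alternative run. The 11 genes became 4 among features free of overlap (AT3G01345, AT3G61030, LBD1 and AT1G74150). They ranged from 11 to 28 with a library left out, the most without Col-0 replicate 2, and were 19 without Col-0 replicate 1. Under this rule, leaving out a library can only keep or add genes, so the count could not fall below 11. A pseudocount of 1, FPKM and a margin of 1.5 removed AT1G31095 and AT1G74150, and a pseudocount of 0.1 added 4 genes. In CMT2/cc line 1 against cc the call of 1 gene became 0 with no filter on low values and 2 with the adjusted p alone. It ranged from 0 to 1 with a library left out, and was 0 without any of the 4 libraries of cc and line 1. In each V1200R/cc line against cc the 2 calls ranged from 1 to 2, with 1 left without cc replicate 1. In V1200R/cc against CMT2/cc the call of 1 gene became 0 with a pseudocount of 1, with FPKM and with quantile normalization, and 4 with the adjusted p alone. It ranged from 0 to 1 with a library left out, and was 0 without CMT2/cc line 1 replicate 1, line 19 replicate 1, V1200R/cc line 9 replicate 2 or line 15 replicate 2. The 3 comparisons with 0 calls kept 0 in all. Where a library was left out, the lone library of its group was assumed to vary like the other groups.

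Replicate numbers are shared between groups, but deviations of same-numbered libraries correlated by only -0.07 to 0.11 over 15 pairs of groups. The labels do not say whether same-numbered libraries were handled together, and these correlations do not settle it. With the replicate number as a block, the calls in the 7 comparisons were 1, 0, 2, 2, 1, 0 and 0, as without it.

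The files hold no read counts, so the limit of detection behind a value of 0 is unknown. With 2 libraries a group, small differences cannot be resolved: the SE of a line against cc was 0.09 to 0.29 over these genes.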

Other observations

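The run of raised genes around AT1G75945 was seen after the data were examined. Over the 1400000 bases of its 7 windows the median difference from cc was 0.95 in V1200R/cc line 9 and 0.95 in line 15. It was 0.01 and -0.01 in CMT2/cc lines 1 and 19. The median cc minus Col-0 difference there was -0.01. Both V1200R/cc lines thus shared the run, and whether it arose in each independently was not tested. The next coding gene of mean 5 TPM or more past the last window, AT1G79230, was at 0.84 for V1200R/cc minus CMT2/cc. The windows thus do not mark where the run ends. They held 1.5% of the 23614 features tested. Of the 484 features called higher in V1200R/cc against CMT2/cc, 121 started there. Of the 185 called higher than cc in both V1200R/cc lines, 97 did (52.43%). No other window of 200 kb had a median above 0.5 in any of these differences, among windows with at least 5 coding genes of mean 5 TPM or more.

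The 24 other features that met the rule included AT4G02795, a transcribed region (chr4:862789-865581), with at most 1.024 TPM in Col-0 and 53.8 to 78.6 TPM elsewhere. The TE gene AT4G01980 and the element AT4TE04415 overlap it and met the rule as well, with 5.77 to 12.5 TPM and 3.88 to 4.80 TPM outside Col-0.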
